A study of Mus musculus with 5 samples.

Results

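The vascular endothelial growth factor (VEGF) and angiopoietin pathway was followed in mouse liver through 9 ligand and receptor genes of the 31053 genes in the files. The ligands were Vegfa and Vegfc, and the 7 receptors were Kdr, Flt1, Flt4, Nrp1, Nrp2, Tek and Tie1. They were chosen by name. The data were single-cell 10x v3 libraries of liver cells from C57BL/6J mice, released by perfusion and passed through a dead cell removal kit. Each of 5 groups had 1 library: normal mice of postnatal day 14 (P14), an adult control, and adult mice 24 h, 48 h or 96 h after surgical removal of 2/3 of the liver (partial hepatectomy), done at 8 weeks of age. The sources used here give no sex, number of mice or sham operation. With 1 library per group there was no replicate check and no test, and every interval below covers counting error only. The protocol text lists the second sample with the operated ones, although its title and source name it the adult control, as it is called here. Lane code L002 appears for that library alone, so lane and control status cannot be told apart.

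VEGF-A is secreted by many tissues and acts on endothelial cells through Kdr, the main signalling receptor, and through Flt1, which binds it tightly, signals weakly and can act as a trap. VEGF-C acts through Flt4, known from lymphatic vessels and also made by liver sinusoidal endothelium. Nrp1 and Nrp2 are co-receptors shared with class 3 semaphorins. Tek is the receptor of the angiopoietins and Tie1 its partner. Hepatocytes lie against the sinusoids, and the exchange of such signals between both cell types is a known subject of research on liver regrowth.

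Cells were taken by marker rules. An endothelial barcode had at least 1000 unique molecular identifiers (UMIs, counted molecules), at least 500 genes, under 30% mitochondrial UMIs, no Ptprc UMI and at least 3 of the 6 genes Stab2, Ptprb, Gpr182, Egfl7, Clec4g and Oit3. A hepatocyte barcode had at least 5000 UMIs, 10 to 30% mitochondrial UMIs and at least 1% of UMIs from Alb, Apoa1 and Ttr. Series of 5 values below run in the order P14, adult control, 24 h, 48 h, 96 h. There were 51, 70, 159, 61 and 87 endothelial and 2106, 925, 1170, 719 and 771 hepatocyte barcodes. Levels are UMIs per 1000000 non-mitochondrial UMIs (CPM) with exact Poisson 95% intervals. The counts come from the 3' ends of transcripts and are not scaled by gene length, so no order between genes is read from them. Libraries held 80.9 to 136 times 1000000 UMIs in all.

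The endothelial label was checked on genes outside the rule. A list of 13 general endothelial genes such as Pecam1 and Cdh5 summed to 1686 to 4303 CPM in endothelial barcodes and 4.84 to 8.26 CPM in hepatocytes, and 12 sinusoidal genes to 2605 to 12932 CPM. Macrophage genes summed to 0 to 12.8 CPM and mesenchymal genes to 45.5 to 145 CPM there. Of 5 lymphatic genes at most 2 had a UMI in any library. Hepatocyte RNA was present: 14, 4, 11, 6 and 4 endothelial barcodes also passed the hepatocyte rule and held 65.5%, 27.7%, 36.9%, 38.7% and 23.8% of the endothelial UMIs. Endothelial levels are therefore given by the rule and without these overlap barcodes, which left 37, 66, 148, 55 and 83. Free RNA, read from a window of 40000 droplets of lower rank by UMIs in each library, had a mean of 466, 1328, 670, 290 and 795 UMIs per droplet. That is 16.01%, 70.3%, 33.5%, 9.83% and 42.6% of the median depth of the endothelial barcodes without the overlap, and in the adult control it is above the 1000 UMI minimum. There 68549 barcodes had at least 1000 UMIs, so the whole window lies within the depths that the endothelial rule admits, and it does not separate free RNA from shallow cells by depth. No doublet caller was run. Between libraries 0 endothelial and 3 hepatocyte barcodes were shared, the latter against 1.81 for independent draws.

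The members are whole genes, counted by gene identifier. In GRCm38 coordinates of GENCODE M21, Vegfa (ENSMUSG00000023951) lies on chr17:46016993-46032369 (minus strand). Vegfc (ENSMUSG00000031520) lies on chr8:54077606-54187096 (plus strand). Kdr (ENSMUSG00000062960) lies on chr5:75932827-75978458 (minus strand). Flt1 (ENSMUSG00000029648) lies on chr5:147561604-147726011 (minus strand). Flt4 (ENSMUSG00000020357) lies on chr11:49609263-49652739 (plus strand). Nrp1 (ENSMUSG00000025810) lies on chr8:128358604-128503363 (plus strand). Nrp2 (ENSMUSG00000025969) lies on chr1:62703285-62818695 (plus strand). Tek (ENSMUSG00000006386) lies on chr4:94739289-94874976 (plus strand). Tie1 (ENSMUSG00000033191) lies on chr4:118471191-118490061 (minus strand).

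RefSeq promoter sequences (GRCm38.p6, the assembly of mm10) were matched for 9 of 9 members. The 250 bases before the start site are shown for Vegfa, the ligand with the clearest hepatocyte pattern, and for Kdr, Flt1 and Tek, the main receptors of both ligand families. Capitals mark GGAAG, which holds the shorter ETS core GGAA, on either strand in the receptors, and the GC box GGGCGG in Vegfa. The windows are chr17:46032378-46032627 (minus strand) for Vegfa, chr5:75978456-75978705 (minus) for Kdr, chr5:147726012-147726261 (minus) for Flt1 and chr4:94739039-94739288 (plus) for Tek.
Vegfa: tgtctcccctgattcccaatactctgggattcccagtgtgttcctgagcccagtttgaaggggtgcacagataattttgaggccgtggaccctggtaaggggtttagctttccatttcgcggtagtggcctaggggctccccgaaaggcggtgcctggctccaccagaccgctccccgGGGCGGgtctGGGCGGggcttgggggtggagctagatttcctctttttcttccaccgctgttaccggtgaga
Kdr: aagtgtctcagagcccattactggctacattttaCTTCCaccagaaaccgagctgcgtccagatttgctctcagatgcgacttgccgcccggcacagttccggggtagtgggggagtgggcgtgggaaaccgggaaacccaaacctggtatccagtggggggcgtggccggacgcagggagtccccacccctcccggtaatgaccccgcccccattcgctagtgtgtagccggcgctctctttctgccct
Flt1: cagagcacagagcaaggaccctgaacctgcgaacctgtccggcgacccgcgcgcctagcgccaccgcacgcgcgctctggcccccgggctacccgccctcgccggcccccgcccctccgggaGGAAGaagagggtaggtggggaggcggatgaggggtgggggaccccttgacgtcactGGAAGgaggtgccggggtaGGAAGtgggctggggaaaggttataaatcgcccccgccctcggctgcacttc
Tek: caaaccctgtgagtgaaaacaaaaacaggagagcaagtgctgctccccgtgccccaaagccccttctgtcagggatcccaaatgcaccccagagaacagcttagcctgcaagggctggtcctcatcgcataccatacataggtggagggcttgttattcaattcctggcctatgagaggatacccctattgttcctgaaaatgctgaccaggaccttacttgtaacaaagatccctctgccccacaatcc
GGAAG (or CTTCC) occurred 3 times before Flt1, at 128, 71 and 52 bases from the start site, 1 time before Kdr, at 216 bases, and 0 times before Tek. Of 32851 mouse promoter windows of this length 64.1% hold it. The shorter core GGAA (or TTCC) was not counted, and it also stands unmarked in the Kdr, Flt1 and Tek windows. GGGCGG (or CCGCCC) occurred 2 times before Vegfa, at 72 and 62 bases, and is in 32.7% of windows. ACGTG (or CACGT), the core of hypoxia response elements, had 0 matches in this Vegfa window and 1 in the window of a second Vegfa start site, against 16.6% of windows. TATAAA (or TTTATA) was in the Flt1 window alone among the 10 windows of the members and in 12.4% of all. These are matches of letters and not binding sites.

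Vegfa was readily counted in hepatocytes of every library and was lowest 48 h after hepatectomy. Its level was 84.9 CPM (82.6 to 87.2) at P14 and 93.6 CPM (88.4 to 98.9) in the adult control. After surgery it was 77.3 CPM (73.5 to 81.3) in the 24 h library, 47.2 CPM (44.3 to 50.3) in the 48 h library and 98.4 CPM (93.2 to 104) in the 96 h library. The 96 h and adult control intervals overlap, and P14, 24 h and 48 h follow below them without overlap. As log2((CPM + 1)/(CPM + 1)) over the adult control, with the counting interval of the plain CPM ratio, Vegfa was -0.97 (-1.11 to -0.86) for 48 h. The same ratio was -0.27 (-0.38 to -0.17) for 24 h, 0.07 (-0.04 to 0.19) for 96 h and -0.14 (-0.23 to -0.05) for P14. Over 24 h, a library with the same lane code, it was -0.70 (-0.83 to -0.59) for 48 h and 0.34 (0.24 to 0.46) for 96 h. A call asks for at least 2-fold on this scale and at least 20 UMIs over both libraries, and Vegfa missed it in all 6 of these comparisons.

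The low 48 h value is a share of the RNA of these cells. Vegfa UMIs per hepatocyte barcode were 2.60, 1.35, 1.29, 1.37 and 1.72, with 48 h beside the adult control. Median hepatocyte depth was 38923, 18527, 19562, 35432 and 22075 UMIs. With every hepatocyte thinned to 5000 UMIs, 27.4%, 30.5%, 26.2%, 14.3% and 31.1% had a Vegfa UMI, and 48 h was again the lowest. Unthinned, 88.7%, 69.8%, 67.4%, 66.6% and 78.9% did, against 0.617 to 11.4% of T or NK barcodes, whose median depth was 4645 to 7841 UMIs. Free RNA held Vegfa at 53.4, 53.9, 21.6, 20.3 and 21.5 CPM, below hepatocytes in each library. With free RNA subtracted the 48 h ratio was -1.02, and over all alternatives it ran from -1.136 to -0.86. The 24 h ratio ran from -0.66 to -0.16. Directions turned for P14 (-0.38 to 0.20) and 96 h (-0.37 to 0.14), so the place of both beside the adult control depends on the processing.

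**Figure D1:**
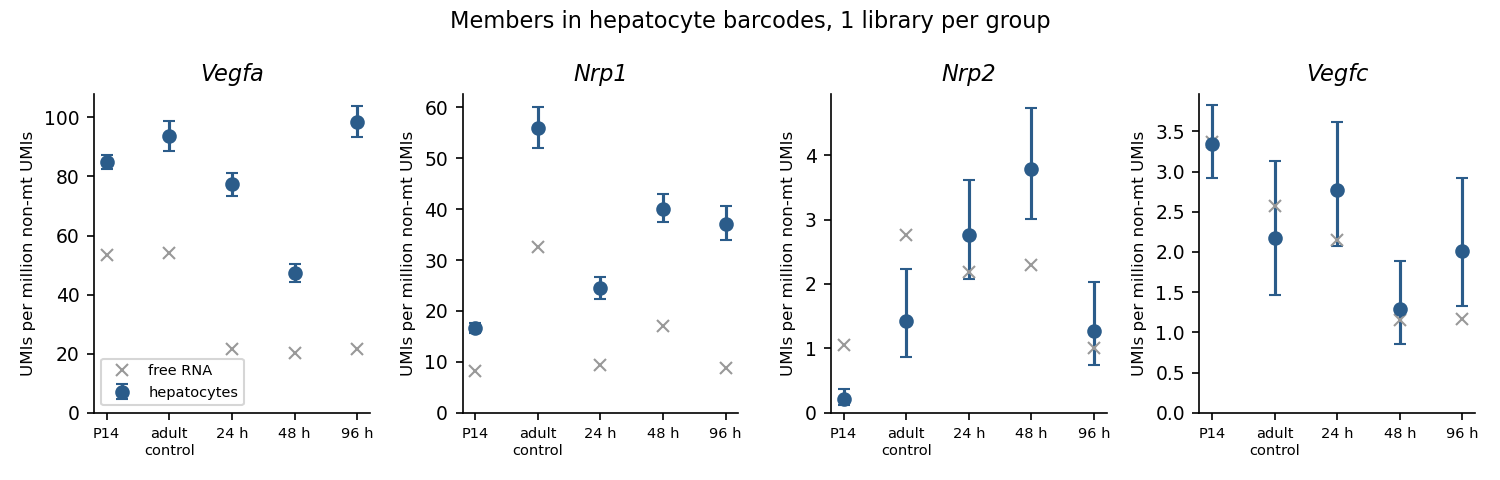
Vegfa, Nrp1, Nrp2 and Vegfc in hepatocyte barcodes (y axes, CPM, from 0) in the 5 libraries (x axes); circles with bars are the level and its exact Poisson 95% interval, crosses the level in free RNA. Vegfa is lowest at 48 h (47.2 CPM), Nrp1 is highest in the adult control (55.9 CPM) and Vegfc lies near its free RNA level.

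Hepatocytes with mitosis genes held less Vegfa. Barcodes were split on 19 mitosis genes, such as Mki67 and Top2a, after thinning to 5000 UMIs. With at least 3 of them Vegfa was 35.2 CPM (31.5 to 39.2) at 48 h, and with 0 of them 59.3 CPM (54.1 to 64.9). The same pair was 56.2 and 83.2 CPM in the 24 h library, 63.7 and 106 in the 96 h library, and 71.01 and 86.6 at P14. In each of these 4 libraries the intervals do not overlap. The adult control had 5 such barcodes, too few to compare. Barcodes with at least 3 mitosis genes numbered 283 at 48 h, 160 at 24 h, 63 at 96 h and 239 at P14. Their median depth at 48 h was 42056 UMIs against 32386, and the part of depth was not tested. Hepatocytes with 0 mitosis genes at 48 h also lay below those of the adult control (93.2 CPM (87.95 to 98.6)).

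Along the liver lobule the Vegfa intervals of the outer terciles overlap in every library but P14. Hepatocytes were cut within each library into 3 terciles of a score of pericentral over periportal genes, which are ranges and not cell types. In portal, middle and central order Vegfa was 46.9, 45.7 and 49.2 CPM at 48 h and 92.5, 103 and 86.2 CPM in the adult control. At P14 it was higher toward the central end, at 73.6, 86.4 and 94.8 CPM. In the 24 h library it was 84.2, 75.7 and 71.6 CPM and in the 96 h library 104, 105 and 87.9 CPM. An overlap does not show equal levels, and no interval was taken of the ratio between terciles. At 24 h the outer intervals barely overlap (77.3 to 91.4 and 65.0 to 78.6 CPM), in the order opposite to P14. Barcodes with hepatocyte RNA but under 5% mitochondrial UMIs, which the rule leaves out, had 23.1, 19.9, 8.28, 8.61 and 12.9 CPM of Vegfa, far below the hepatocytes of the rule. At P14, in the adult control and at 24 h this rests on 16, 19 and 28 UMIs. There Cyp2e1, a hepatocyte gene, was 1253, 877 and 85.2 CPM, against 2347, 2045 and 689 CPM in hepatocytes of the rule with 0 endothelial markers. At P14 the hepatocyte genes Cyp2f2 (47.7 against 33.3 CPM) and Glul (130 against 114 CPM) went the other way. In the adult control Cyp2f2 was 278 against 1915 CPM and Glul 142 against 178 CPM. At 24 h they were 70.1 against 498 CPM and 21.0 against 108 CPM. Whether these barcodes are hepatocytes was not tested.

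**Figure D2:**
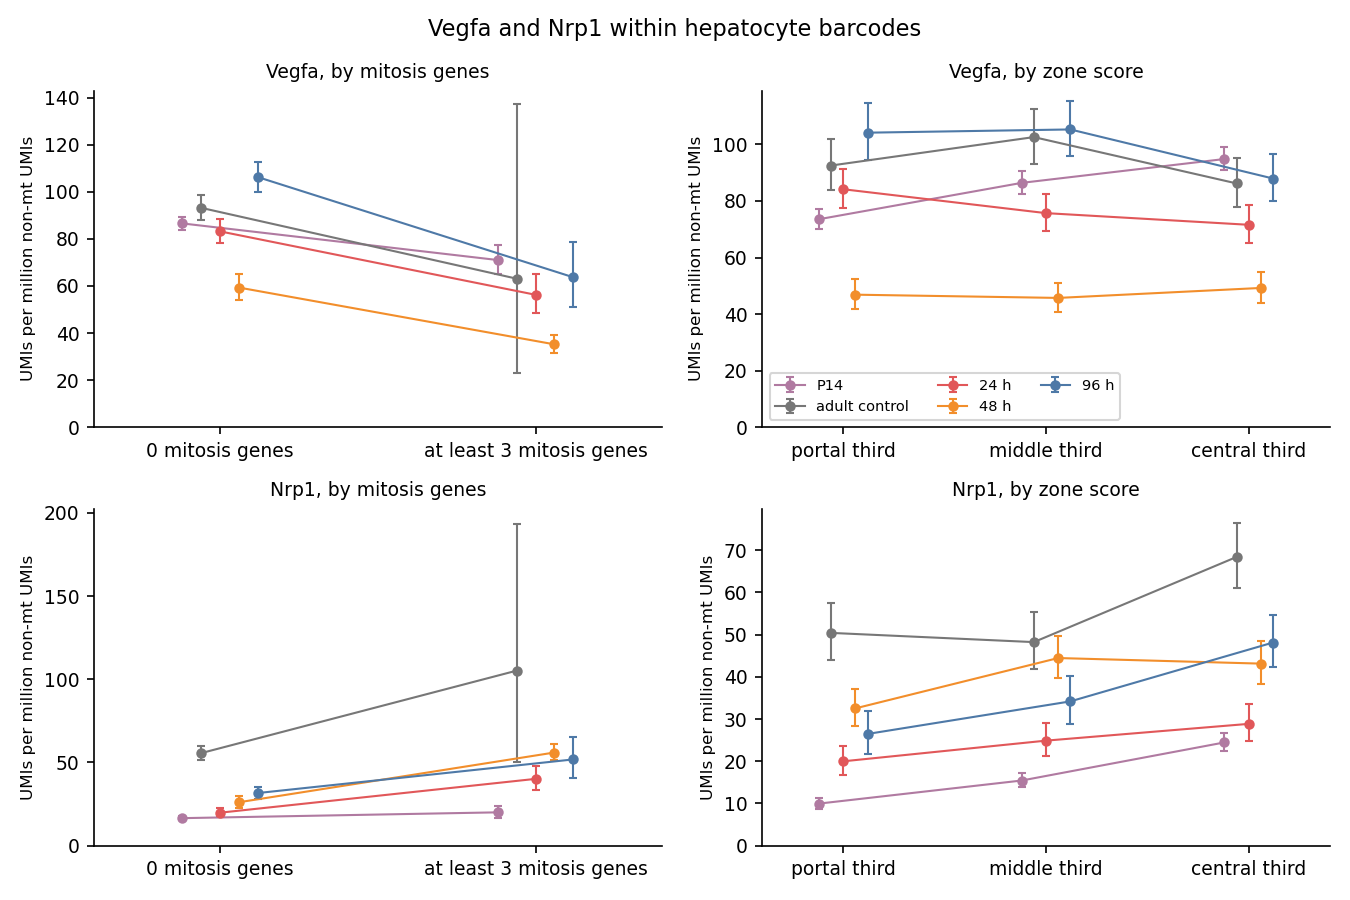
Vegfa (top) and Nrp1 (bottom) in subsets of hepatocyte barcodes (y axes, CPM with exact Poisson 95% intervals), 1 line per library; left, barcodes with 0 or at least 3 of 19 mitosis genes; right, terciles of the pericentral over periportal score. At 48 h barcodes with mitosis genes hold less Vegfa (35.2 against 59.3 CPM) and more Nrp1 (55.97 against 26.1 CPM).

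Outside hepatocytes Vegfa gave few UMIs. Endothelial barcodes by the rule held 49, 17, 37, 8 and 9 Vegfa UMIs, and without the overlap 16, 12, 18, 3 and 4, or 57.2, 67.01, 42.7, 11.8 and 16.1 CPM. In the adult control (34.6 to 117 CPM) and at P14 (32.7 to 92.8 CPM) the interval holds the hepatocyte level as well, so a lower level than in hepatocytes is not shown there. Without the overlap its interval holds the free RNA level in 4 libraries. The exception is 24 h, where the interval starts at 25.3 CPM beside 21.6 CPM in free RNA. Neutrophils held Vegfa at 17.1, 39.5, 13.1, 6.22 and 25.9 CPM, from 7, 6, 16, 12 and 8 UMIs.

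Vegfc gave few UMIs. Endothelial barcodes by the rule had 6, 4, 3, 0 and 14, and the 14 at 96 h came from 2 barcodes, 1 of which held 8. For the 0 of 48 h a floor of 3 counts is 7.72 CPM, and the upper end of its Poisson interval is higher. Hepatocytes had 3.34, 2.18, 2.77, 1.30 and 2.01 CPM beside 3.37, 2.57, 2.15, 1.15 and 1.16 CPM in free RNA. In 4 libraries the interval holds the free RNA level. At 96 h it starts at 1.32 CPM, from 27 UMIs. Free RNA averaged 290 to 1328 UMIs per droplet, against a median hepatocyte depth of at least 18527 UMIs in each library. A CPM near that of free RNA therefore does not show how much of the Vegfc came from it. Whether hepatocytes made this Vegfc RNA was not tested.

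Other ligands of these receptors were also counted. Vegfb, which binds Flt1, was 14.7, 22.00, 18.9, 17.95 and 20.02 CPM in hepatocytes and 20.7, 8.54, 22.3, 33.5 and 25.9 CPM in endothelial barcodes. In the adult control endothelial barcodes 4 UMIs make 17.1 CPM, so 8.54 CPM rests on fewer and no low level is read from it. Pgf, another Flt1 ligand, had 0 UMIs in the hepatocytes of all 5 libraries. Angpt2, which opposes Angpt1 at Tek in many settings, had 3, 0, 3, 1 and 2 UMIs in endothelial barcodes, and Angpt1, the activating ligand, 0, 1, 0, 0 and 0. Angpt1 was seen in monocytes at 96 h, with 12 UMIs over 31 barcodes. Mesenchymal cells, a known source of Angpt1, numbered 3, 4, 7, 2 and 13 barcodes and give no level.

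Nrp1 was the receptor gene with a clear level in hepatocytes, and it was highest in the adult control. It was 55.9 CPM (52.00 to 60.1) there and 16.6 CPM (15.7 to 17.7) at P14. After surgery it was 24.4 CPM (22.3 to 26.7) in the 24 h library, 40.1 CPM (37.4 to 42.9) in the 48 h library and 37.1 CPM (33.9 to 40.5) in the 96 h library. Of neighbours in this order, 48 h and 96 h overlap and the others do not. The log2 ratio over the adult control was -1.69 (-1.89 to -1.61) for P14, -1.16 (-1.36 to -1.03) for 24 h, -0.47 (-0.63 to -0.34) for 48 h and -0.58 (-0.76 to -0.43) for 96 h. Over 24 h it was 0.69 (0.55 to 0.88) for 48 h and 0.58 (0.42 to 0.79) for 96 h. Free RNA also held most Nrp1 in the adult control (8.28, 32.5, 9.31, 17.1 and 8.75 CPM), and with it subtracted the 24 h ratio was -1.19. Over all alternatives the 24 h ratio ran from -1.86 to -0.94, below 2-fold with a pseudocount of 10 CPM and largest with 10 to 20% mitochondrial UMIs. That narrower range also gave the largest 96 h ratio, past 2-fold (-1.27 to -0.48 over all alternatives).

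Nrp1 was the only member called in hepatocytes, where Tek had under 20 UMIs in 4 of the 6 comparisons and Flt1 and Flt4 in that of 96 h over the adult control. It was called lower at P14 than in the adult control, as were 11.6% of genes, and at 24 h, as were 6.79%. Higher calls over the adult control took 8.34%, 8.4%, 8.48% and 4.79% of genes at P14, 24 h, 48 h and 96 h, with 0 members among them. With the pseudocount of 1 CPM this holds for members of a few CPM only on that scale. By the plain CPM ratio Nrp2 at P14 was 6.58-fold lower (3.13 to 14.2), Kdr at P14 2.73-fold lower (1.81 to 4.08), and Tie1 at 48 h 2.74-fold lower (1.07 to 7.53), all against the adult control. In both libraries of each of these pairs the hepatocyte level lay below that of free RNA, and the part of free RNA was not tested. Against 24 h, Flt1 was 2.49-fold lower (1.23 to 5.38) at 48 h and 3.86-fold lower (1.47 to 12.8) at 96 h, Flt4 3.90-fold lower (1.13 to 20.8) and Nrp2 2.19-fold lower (1.25 to 4.03) at 96 h, and Vegfc 2.14-fold lower (1.32 to 3.53) at 48 h. Flt1 and Flt4 lay below their free RNA level in each library of these pairs, with 5 and 3 UMIs at 96 h. Whether hepatocytes made this RNA was not tested. Tie1 at 96 h passed 2-fold with an interval that includes 1, and Nrp2 at 48 h is given below. On the scale of the call no member was lower at 48 h (6.7% of genes) or 96 h (2.01%). Over 24 h, 0 members were called at 48 h (1.78% of genes higher, 1.51% lower) and at 96 h (4.78% and 4.61%).

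Within hepatocytes Nrp1 went with mitosis genes in the direction opposite to Vegfa. With at least 3 mitosis genes it was 55.97 CPM (51.3 to 60.97) at 48 h, and with 0 26.1 CPM (22.7 to 29.9). The pair was 40.1 and 19.8 CPM in the 24 h library and 51.8 and 31.6 in the 96 h library, without overlap of intervals. At P14 it was 20.02 and 16.5 CPM, and the intervals overlap. Nrp1 was also higher in the central than in the portal tercile of every library. Central against portal it was 24.5 against 9.97 CPM at P14, 68.4 against 50.4 in the adult control and 48.1 against 26.5 in the 96 h library. In the other libraries it was 28.9 against 19.99 (24 h) and 43.1 against 32.5 (48 h).

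Nrp2 was scarce in hepatocytes, with its top levels at 48 h and 24 h. It had 14, 19, 54, 79 and 17 UMIs, or 0.217, 1.43, 2.77, 3.79 and 1.26 CPM. Its plain CPM ratio over the adult control was 1.94-fold (1.13 to 3.46) for 24 h and 2.66-fold (1.60 to 4.65) for 48 h. The UMIs lay toward the central tercile, at 5.44 CPM (3.75 to 7.64) against 0.746 CPM (0.242 to 1.74) for 24 h and 5.95 against 1.45 CPM for 48 h. Hepatocytes with 0 of the 6 endothelial markers had 0.0378, 1.29, 2.37, 3.37 and 1.15 CPM. At P14 most of the Nrp2 UMIs lay in barcodes with such a marker, and in the other 4 libraries the level without them was near that of all hepatocytes. Free RNA held Nrp2 at 1.05, 2.76, 2.19, 2.30 and 1.001 CPM. Only at 48 h does the hepatocyte interval (3.00 to 4.73 CPM) lie above that level. At 24 h (2.08 to 3.61 CPM) it holds it, and it overlaps the adult control. In that library free RNA averaged 670 UMIs per droplet, and the median hepatocyte depth was 19562 UMIs. A CPM near that of free RNA therefore does not show how much of the Nrp2 came from it, and this was not tested.

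In hepatocytes Nrp1 was counted far above the ratio to Kdr seen in endothelial barcodes in all 5 libraries, and Nrp2 above it in all but P14. Kdr had 21 to 71 UMIs in the hepatocytes of a library, 1.10 to 3.00 CPM, below its free RNA level of 4.23 to 9.63 CPM. At the ratios of endothelial barcodes without the overlap, the 46 Kdr UMIs of 48 h would go with 16.6 of Nrp1 and 10.6 of Nrp2, and 835 and 79 were counted. For Flt1 it would be 19.5 with 12 counted, for Flt4 20.5 with 19 and for Tek 10.2 with 9. Tie1 was above the endothelial ratio in all 5 libraries, most at P14, with 66 UMIs counted and 16.9 at that ratio. It was 14 with 7.16 in the adult control, 14 with 8.79 at 24 h, 8 with 6.91 at 48 h and 7 with 4.84 at 96 h. The pairs of 48 h and 96 h are close and rest on few UMIs. Per Kdr UMI, free RNA held 0.39 of Tie1 at P14 and 0.436 of Nrp2 in the adult control, beside 0.930 and 0.475 in hepatocytes.

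In endothelial barcodes Kdr, the main VEGF receptor, was highest at 48 h. By the rule it was 402 CPM (357 to 451) at P14, 965 CPM (843 to 1099) in the adult control, 894 CPM (821 to 971) for 24 h, 1668 CPM (1542 to 1801) for 48 h and 1075 CPM (963 to 1197) for 96 h. Without the overlap barcodes it was 886, 1217, 1284, 2514 and 1295 CPM. In both sets 48 h stood above and P14 below the other 3 libraries, which overlap one another. The log2 ratio of 48 h over the adult control was 0.79 (0.57 to 1.01) by the rule and 1.05 (0.82 to 1.27) without the overlap, and over 24 h 0.90 (0.73 to 1.07) and 0.97 (0.80 to 1.137). It was 0.14 with free RNA subtracted and 0.43 per UMI of the general endothelial genes, so its size over the adult control depends on these choices. The low P14 ratio was -1.26 (-1.52 to -1.01) by the rule, -0.46 (-0.73 to -0.19) without the overlap and 0.26 with barcodes weighted equally, so its direction does too.

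Flt1 was higher at 24 h and 48 h than in the other 3 libraries. By the rule it was 209 CPM (177 to 245) at P14, 307 CPM (241 to 387) in the adult control, 653 CPM (591 to 719) for 24 h, 703 CPM (622 to 791) for 48 h and 405 CPM (337 to 482) for 96 h. Without the overlap barcodes it was 443, 396, 952, 1066 and 496 CPM, and in both sets 24 h and 48 h overlap each other and none of the other libraries. The log2 ratio over the adult control was 1.08 (0.72 to 1.47) for 24 h and 1.19 (0.81 to 1.59) for 48 h by the rule, and 1.26 and 1.42 without the overlap. Over all alternatives it ran from 0.63 to 1.83 for 24 h and from 0.54 to 1.95 for 48 h. For 96 h it was 0.40 (-0.03 to 0.84), and 96 h over 24 h was -0.69 (-0.99 to -0.40). Neutrophil genes also summed higher in these libraries, at 23.4, 4.27, 132, 157 and 12.95 CPM in endothelial barcodes and 172, 19.2, 696, 1671 and 65.8 CPM in free RNA, and their part in the Flt1 level was not tested. Neutrophils themselves had 2, 0, 8, 3 and 1 Flt1 UMIs. The membrane and soluble forms of Flt1 cannot be separated in gene counts.

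Flt4, the VEGF-C receptor, was highest at 48 h by its CPM, as Kdr was. It was 229, 406, 423, 741 and 521 CPM by the rule and 525, 519, 605, 1121 and 649.6 CPM without the overlap. Its log2 ratio of 48 h over the adult control was 0.87 (0.53 to 1.22) and 1.11 (0.77 to 1.46), and over all alternatives it ran from 0.22 to 1.80, lowest with free RNA subtracted. For 24 h and 96 h the intervals by the rule include 0, at 0.06 (-0.28 to 0.41) and 0.36 (-0.01 to 0.74).

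Endothelial Nrp1 was low at 24 h. By the rule it was 204 CPM (172 to 239) at P14, 619 CPM (523 to 729) in the adult control, 286 CPM (245 to 331) for 24 h, 609.9 CPM (535 to 693) for 48 h and 476 CPM (402 to 559.5) for 96 h. Without the overlap it was 436, 759, 415, 909 and 565 CPM, and there 24 h and P14 were the 2 lowest and overlap. The log2 ratio of 24 h over the adult control was -1.11 (-1.44 to -0.79) by the rule, -0.87 (-1.20 to -0.54) without the overlap and ran from -1.55 to -0.70 over all alternatives. That of 48 h over 24 h was 1.09 (0.81 to 1.38) and 1.13 (0.84 to 1.42). The P14 ratio over the adult control, -1.60 (-1.94 to -1.26) by the rule, ran from -2.24 to 0.19 and turned direction with barcodes weighted equally or thinned. The 24 h level was thus below both the adult control and 48 h in endothelial barcodes as in hepatocytes.

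Nrp2 in endothelial barcodes was 124, 205, 239, 383 and 246 CPM by the rule and 282, 268, 349, 578 and 299 CPM without the overlap, with 48 h alone at the top in both. Its log2 ratio of 48 h over the adult control was 0.90 (0.43 to 1.40) and 1.11 (0.63 to 1.61), and over all alternatives it ran from 0.26 to 1.60, lowest with free RNA subtracted. For 24 h it was 0.22 (-0.25 to 0.72) by the rule, an interval that includes 0.

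The angiopoietin receptors had the same top library with fewer UMIs. Tek was 93.7, 179, 265, 365 and 239.7 CPM by the rule and 189, 235, 389, 555 and 291 CPM without the overlap. Its log2 ratio over the adult control was 1.02 (0.52 to 1.56) for 48 h and 0.56 (0.07 to 1.09) for 24 h by the rule, and it was above 0 under all alternatives (0.37 to 1.28 and 0.11 to 0.97). Tie1 was 107, 167, 198, 247 and 239.7 CPM by the rule and 211, 218, 289.6, 378 and 299 CPM without the overlap. No neighbours in the Tie1 order differ beyond their intervals. Its ratio for 48 h was 0.57 (0.02 to 1.145) by the rule and -0.08 with free RNA subtracted.

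Of the 9 members Vegfc had under 20 UMIs in all 6 endothelial comparisons, and Vegfa in those of 48 h and 96 h over the adult control without the overlap. The number of receptors called depended on the overlap barcodes. By the rule, over the adult control, Flt1 and Tek were higher at 48 h (12.6% of all genes) and Flt1 at 24 h (13.1%). Nrp1 was lower at 24 h (8.37%) and Kdr and Nrp1 at P14 (14.2%), where the direction of both turned with equal weights and thinning. No receptor was higher at P14 (11.5%), lower at 48 h (10.9%) or called at 96 h (8.46% higher, 7.32% lower). Over 24 h, Nrp1 was higher at 48 h (3.74%), and no receptor was lower at 48 h (5.12%) or called at 96 h (6.21% and 8.25%). The ligand Vegfa, with few UMIs, was lower at 48 h and 96 h than in the adult control (log2 -1.77 (-3.24 to -0.53) and -1.29 (-2.66 to -0.07)) and lower at 48 h than at 24 h (-1.48 (-2.83 to -0.39)). The adult control also had the highest Vegfa level in free RNA, and the part of free RNA in these calls was not tested.

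Without the overlap 5 of 7 receptors, all but Nrp1 and Tie1, were called higher at 48 h over the adult control (19.2% of all genes), and Flt1 at 24 h (16.3%). No receptor was higher at P14 (19.6%) or 96 h (9.02%), or lower at P14, 24 h, 48 h or 96 h (15.6%, 10.8%, 14.1% and 9.72%). Over 24 h, Nrp1 was higher at 48 h (4.46%), and none was lower then (8.03%) or called at 96 h (7.23% and 10.3%). Vegfa was lower than at 24 h in both later libraries (-1.77 (-4.26 to -0.08) and -1.35 (-3.43 to 0.20)). Each of the 5 calls of 48 h was lost when free RNA was also subtracted, which gave Kdr 0.21, Flt1 0.59, Flt4 0.27, Nrp2 0.28 and Tek 0.40, and that of Flt1 at 24 h as well (0.71). The free RNA mean was 70.3% of the median depth of these barcodes in the adult control, against 9.83% at 48 h. In the adult control its window is not separated from shallow cells by depth. The loss therefore cannot show how much of the calls is due to free RNA. Per 100 UMIs of the 13 general endothelial genes, 48 h against the adult control was 38.7 against 28.4 for Kdr, 17.3 against 12.1 for Flt4 and 8.91 against 6.25 for Nrp2, each under 2-fold. On this scale Flt1 was 16.4 against 9.24 and Tek 8.55 against 5.47, also under 2-fold. Nrp1, which was not called, was lower at 48 h, with 14.0 against 17.7. The median log2 ratio of the 7 receptors at 48 h was 1.11, beside 0.62 for general endothelial genes, of which 10 of 10 were above 0, 0.79 for sinusoidal genes (11 of 11 above 0) and 0.23 over all genes.

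**Figure D3:**
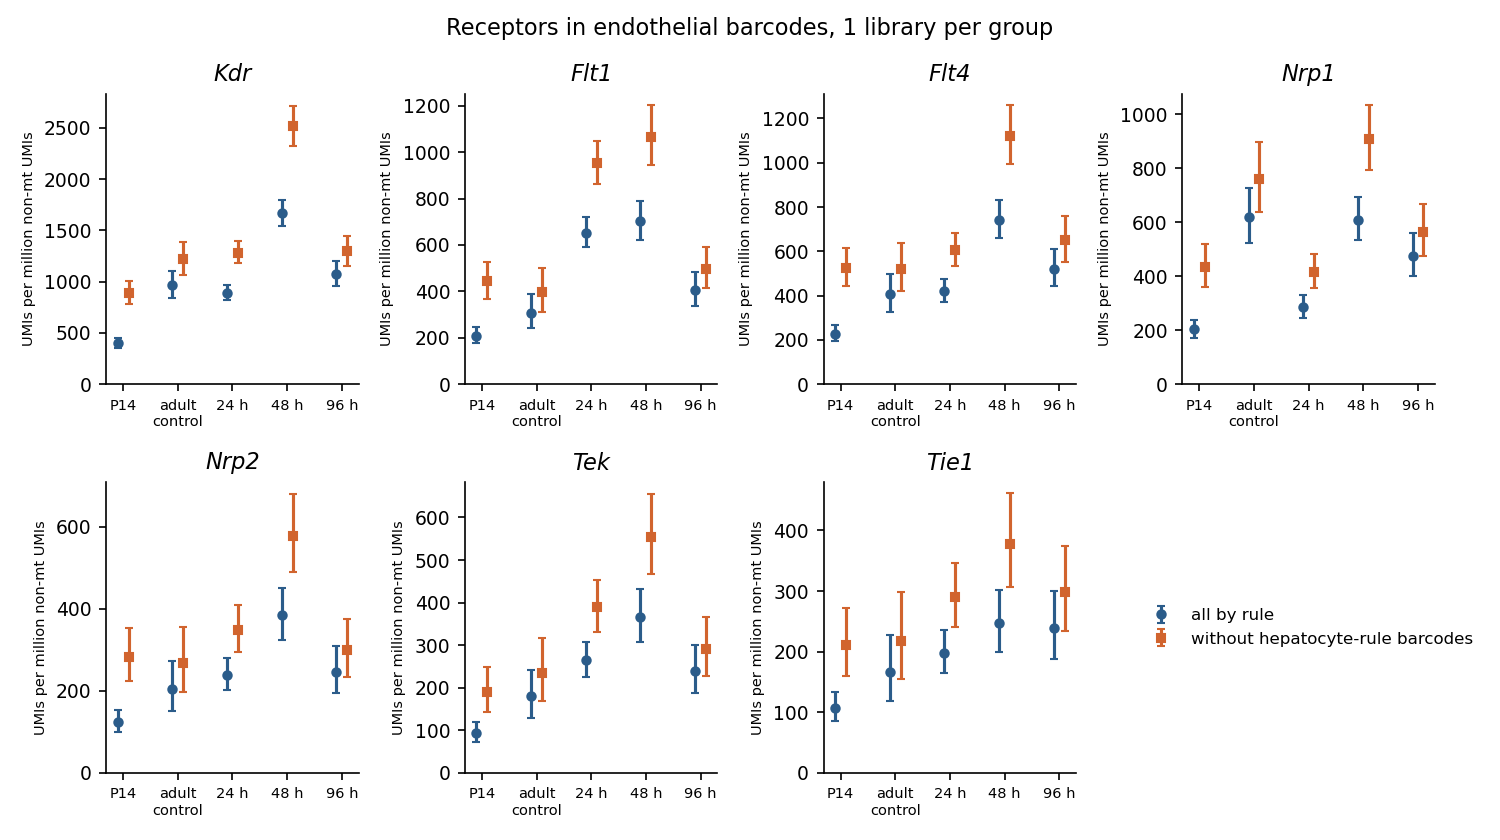
The 7 receptors in endothelial barcodes (y axes, CPM, from 0, scale differs by gene) in the 5 libraries; the 2 series are all barcodes of the rule and those that do not pass the hepatocyte rule, with exact Poisson 95% intervals. Kdr is highest at 48 h in both series (1668 and 2514 CPM), and Flt1 is high at 24 h and 48 h.

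The make-up of the receptor UMIs differed at 24 h. Without the overlap there were 832, 647, 1805, 1810 and 965 UMIs of the 7 receptors. Flt1 took 14.9% (12.6 to 17.5) of them at P14, 10.97% (8.67 to 13.6) in the adult control, 22.2% (20.3 to 24.2) for 24 h, 14.97% (13.4 to 16.7) for 48 h and 12.7% (10.7 to 15.02) for 96 h (exact Clopper-Pearson 95% intervals). Its 24 h share was above every other library beyond counting error. Nrp1 took 14.7% (12.3 to 17.3) at P14, 21.02% (17.9 to 24.4) in the adult control, 9.70% (8.37 to 11.2) for 24 h, 12.8% (11.3 to 14.4) for 48 h and 14.5% (12.3 to 16.9) for 96 h, lowest at 24 h. Nrp1 was 28.5% to 66.98% of the receptor UMIs in free RNA, the most in the adult control, and the part of this in its shares was not tested. Kdr took 29.8% to 35.3%, Flt4 14.1% to 17.7%, Nrp2 7.42% to 9.50%, Tek 6.37% to 9.09% and Tie1 5.30% to 7.67%. Per Kdr UMI there were 0.741 Flt1 UMIs at 24 h, 0.326 in the adult control and 0.424 at 48 h.

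**Figure D4:**
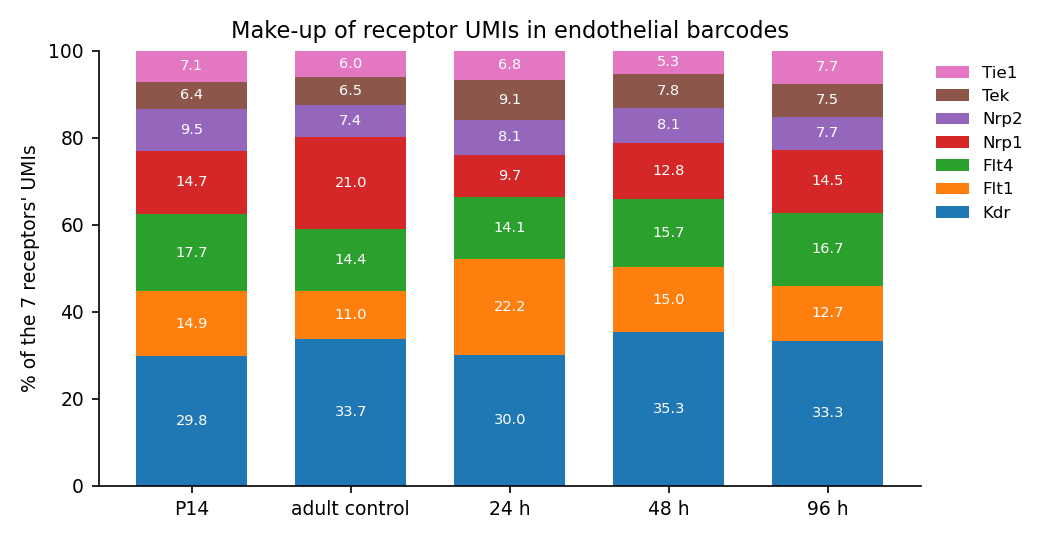
Percent of all UMIs of the 7 receptors taken by each gene (stacked bars) in endothelial barcodes that do not pass the hepatocyte rule, for the 5 libraries. Flt1 takes 22.2% at 24 h and 10.97% in the adult control, and Nrp1 9.70% and 21.02%.

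Most endothelial barcodes held at least 1 receptor. Without the overlap 97.3%, 80.3%, 95.9%, 92.7% and 83.1% had a UMI of at least 1 receptor, and the median number of different receptors was 5, 2, 4, 5 and 3. These numbers are not thinned, and the median depth of the barcodes was 2911, 1890, 1997, 2950 and 1865 UMIs. The 1 barcode with most receptor UMIs held 11.3%, 6.49%, 2.66%, 7.85% and 8.91% of them. Thinned to 1000 UMIs, 67.6%, 53.03%, 60.8%, 67.3% and 53.01% of barcodes had a Kdr UMI, 40.5%, 16.7%, 51.4%, 50.9% and 27.7% a Flt1 UMI and 51.4%, 30.3%, 24.3%, 43.6% and 32.5% an Nrp1 UMI. For Flt4 it was 56.8%, 30.3%, 35.8%, 47.3% and 33.7%, for Nrp2 21.6%, 10.6%, 24.3%, 36.4% and 14.5% and for Tek 18.9%, 15.2%, 26.4%, 29.1% and 16.9%. For Tie1 it ran from 9.09% to 27.03%, with 25.5% at 48 h. These shares rest on 1 random draw and few barcodes. A separate draw over all barcodes of the rule gave 35.3%, 24.3%, 33.3%, 59.02% and 37.9% for Flt4, with another library at the top, so no order of libraries is read from them. For Flt1 the P14 interval (24.8 to 57.9%) holds the 24 h and 48 h shares. T or NK barcodes thinned alike had a Kdr UMI in 0% to 0.722% and a Flt1 UMI in 0% to 0.412%.

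Barcodes with a UMI of Wnt2, Wnt9b or Rspo3, signals made by endothelium near the central vein, held more of all 7 receptors in each of the 5 libraries, by the level alone. They numbered 171 of the barcodes without the overlap, and 218 had none. By library 15, 15, 80, 38 and 23 had such a UMI and 22, 51, 68, 17 and 60 had none, so the make-up differed. At 48 h and in the adult control, barcodes without it had Kdr intervals of 1017 to 1796 and 852 to 1227 CPM, which overlap. Barcodes with it had 2497 to 2940 and 1284 to 1932 CPM, which do not. The part of this make-up in the receptor levels of the libraries was not tested. With against without, Kdr was 1584 against 1027 CPM in the adult control, 1358 against 1095 CPM for 24 h, 2712 against 1366 CPM for 48 h, 1808 against 900.0 CPM for 96 h and 1237 against 464 CPM at P14. The Kdr intervals overlap at 24 h, and those of other receptors overlap in some libraries, as for Tek at 96 h. Flt1 was 628 against 220.4 CPM at P14, 539 against 323 CPM in the adult control, 1018 against 784 CPM for 24 h, 1162 against 509 CPM for 48 h and 668 against 364 CPM for 96 h. The Nrp1 difference was small at 24 h (436 against 362 CPM) and larger at 48 h (1019 against 268 CPM). Median depth was 4010 against 1700 UMIs, and the part of depth and free RNA in this difference was not tested.

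Among immune classes, plasmacytoid dendritic cells (pDC) stood out by Nrp1. It was 88.6 CPM (62.4 to 122) in the adult control, 53.4 CPM (34.6 to 78.8) for 24 h, 82.6 CPM (67.1 to 101) for 48 h and 86.9 CPM (59.5 to 123) for 96 h, from 49, 69, 129 and 45 barcodes. T or NK cells had 6.72 to 13.1 CPM. Kdr in pDC reached 40.5 CPM (29.8 to 53.7) at 48 h, beside 9.53 CPM in T or NK cells and 9.63 CPM in free RNA. P14 had 9 pDC barcodes. Monocytes, in the 3 libraries with at least 20, had Nrp1 at 28.4, 29.99 and 57.4 CPM.

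**Figure D5:**
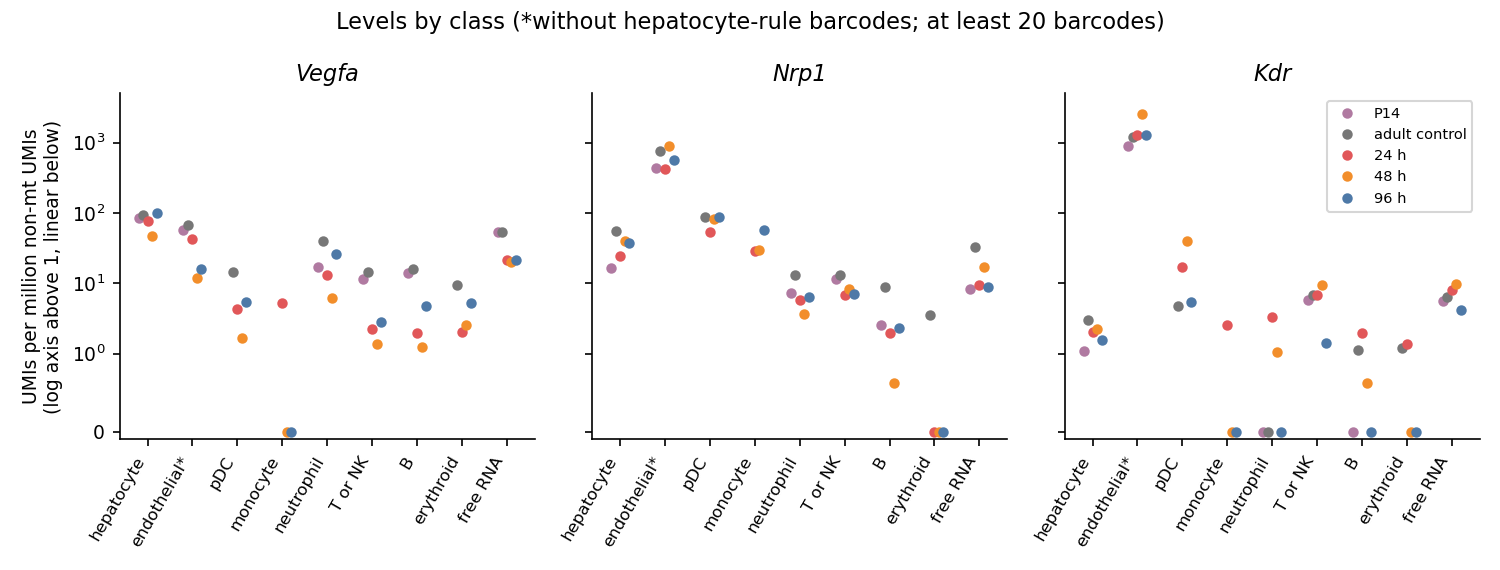
Vegfa, Nrp1 and Kdr by class of barcode (x axes; 1 point per library with at least 20 barcodes) in CPM (y axis, log above 1 and linear below). The Vegfa points of hepatocytes lie above those of the other classes, although at P14 and in the adult control the endothelial interval holds the hepatocyte level, Kdr is highest in endothelial barcodes, and the Nrp1 level is above T or NK cells in endothelial barcodes, pDC and hepatocytes of every library plotted.

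Signal transduction genes downstream of the receptors were counted in endothelial barcodes without the overlap. Of 20 signal transduction genes 15 had at least 20 UMIs, of which, over the adult control, 5 were at least 2-fold higher at 24 h and 4 at 48 h, with none lower in either library. Of all genes 16.3% and 19.2% were that much higher. The list's median log2 ratio was 0.59 and 0.73, beside 0.53 and 0.62 for general endothelial genes and 0.21 and 0.23 over all genes. Nos3, the endothelial nitric oxide synthase, measured 78.2, 318 and 201 CPM in the control, 24 h and 48 h libraries. Rasip1, needed for vessel lumens, was, in the same order, 218, 807 and 626 CPM. Grb10, a receptor-kinase adaptor, had 1 UMI (5.58 CPM) in the control, then 107 and 153 CPM. Free RNA was not subtracted for these genes or for the endothelial lists of the following paragraphs. Its mean was 70.3%, 33.5% and 9.83% of the median depth of these barcodes in the control, 24 h and 48 h libraries. Its part in these calls was not tested.

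Genes known to respond to VEGF or Notch had calls in both directions at 24 h and 48 h, more of them higher. Of 10 with enough UMIs of 24 listed, 5 were higher and 2 lower at 24 h, 4 and 1 at 48 h, and 2 and 0 at 96 h. The shares of all genes, higher and lower, were 16.3% and 10.8%, 19.2% and 14.1%, and 9.02% and 9.72%. The list's median log2 ratio was 0.92, 0.83 and 0.50. For general endothelial genes it was 0.53, 0.62 and -0.03, and over all genes 0.21, 0.23 and 0.11. Adamts1, a secreted protease, was, in the order above, 50.3, 798 and 496 CPM. Col4a1, a basement membrane collagen, was 335, 1495 and 1212 CPM. Id1, a transcription regulator, was 112, 536 and 279 CPM. Lama4, a laminin chain of vessel walls, was lower, at 134, 37.98 and 59.02 CPM. Among ligands, the neuropilin ligand Sema3f was 184, 790.4 and 519 CPM. Sema3d, of the same class, had 1 UMI (5.58 CPM) in the control, then 145 and 165 CPM.

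Endothelial subtype and state genes also differed between libraries. Central vein genes summed to 3869, 1686, 7703, 5717 and 3163 CPM without the overlap, and 7 of 8 were at least 2-fold higher at 24 h and 7 at 48 h. Thbd (thrombomodulin) measured 246, 3337 and 1200.0 CPM in these libraries, control first. Of 11 sinusoidal genes 3 were higher at 24 h and 4 at 48 h. Of 10 general endothelial genes 3 were higher at 48 h, among them Cdh5, with 480.3 and 988 CPM. Large-vessel genes went both ways, with 3 higher and 3 lower of 10 at 24 h, and 2 higher and 4 lower of 7 at 48 h, where their median log2 ratio was -1.07. Of all genes 16.3% were called higher at 24 h and 19.2% at 48 h, and 10.8% and 14.1% lower. The median log2 ratio over all genes at 48 h was 0.23. Stress genes known from tissue dissociation summed to 1551, 1195, 1569, 2431 and 678 CPM, highest at 48 h as Kdr was, and mitosis genes to 3298, 61.4, 85.5, 929 and 1428 CPM. The part of these states in the receptor levels was not tested.

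In hepatocytes, hypoxia genes, among which Vegfa is often counted, had no common direction. Of 21 with enough UMIs of 25 listed, 3 were higher and 2 lower at 24 h, 4 and 4 at 48 h, 0 and 1 at 96 h, and 2 and 2 at P14. In the same order 8.4% and 6.79%, 8.48% and 6.7%, 4.79% and 2.01%, and 8.34% and 11.6% of all genes were called. Their median log2 ratio at 48 h was -0.20, beside -0.05 over all genes. Ndrg1, a hypoxia-induced gene, was 3.30 CPM in the adult control and 21.6 CPM at 48 h, whereas Bnip3, a mitophagy gene, was 169.7 and 64.8 CPM. The 19 mitosis genes summed to 389, 26.7, 425, 1329 and 310.1 CPM in hepatocytes, most at 48 h, where Vegfa was lowest.

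Genes closest to Vegfa in hepatocytes, by the root mean square difference of centred log2(CPM + 1) profiles over 5 libraries among 5056 genes, were Ass1 (0.106), a urea cycle enzyme, Etfrf1 (0.116) and Ugp2 (0.118), which makes UDP-glucose. Ass1 was 1821, 1681, 1376, 979.9 and 1892 CPM. For Kdr in endothelial barcodes by the rule, among 7019 genes, they were Fbxo4 (0.0684), Akr1b8 (0.0780) and 6430548M08Rik (0.0912). Fbxo4 was 8.27, 21.4, 17.6, 38.6 and 22.7 CPM, and 8.27 CPM stands for 6 UMIs in the P14 barcodes. Counting error did not enter this ranking, so the place of such scarce genes in it is uncertain. These are likenesses over 5 libraries and a description only.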

How the data were processed

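UMI counts per gene and barcode were deposited by the authors as unfiltered matrices; per the file headers they were written by software version 3.0.2, and per the submitters' processing notes bcl2fastq 2.17.1.14, Cell Ranger, Seurat 3.1 and mm10 were used. Barcodes were classed by the marker rules given with the results. Other classes needed at least 3 of their own markers and those of no other class, with the minimums of the endothelial rule on UMIs and genes. UMIs were summed per class and library and divided by non-mitochondrial UMIs, with 13 mitochondrial genes left out. Free RNA was subtracted only as an alternative. No doublet caller was run, and joined cells were not removed.

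Ratios used a pseudocount of 1 CPM. The interval was the exact 95% conditional interval for 2 counts; shares have Clopper-Pearson intervals. The ratio step was tested on simulated data. Python 3.11.15 with numpy 2.4.6, scipy 1.17.1, pandas 2.3.3 and matplotlib 3.10.9 was used, and edgeR 4.0.16 in R 4.3.3 only for TMM factors as an alternative. Members and gene lists were chosen with earlier results of these data known. From each list up to 4 genes per comparison were named, the largest log2 ratios past 2-fold with at least 20 UMIs. The genes most like Vegfa and Kdr are the 3 closest with a mean of at least 20 CPM. Each matrix has its own depth, and the UMI minimum sets which genes could be called.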

Additional observations from a re-analysis of the deposited data

How the results depend on the processing

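Values are log2 ratios over the adult control. No paired analysis was possible because each group has 1 library. Vegfa in 48 h hepatocytes was lower under every alternative run, at -1.136 with barcodes thinned to 5000 UMIs and -1.12 with 10 to 20% mitochondrial UMIs. The narrower range gave -0.38 for P14, -0.66 for 24 h and -0.25 for 96 h. No lower limit gave -0.40 for 24 h and -0.37 for 96 h, and TMM factors reversed P14 to 0.20. Kdr at P14 reversed to 0.26 with barcodes weighted equally and 0.28 when thinned to 1000 UMIs. It was -1.93 with free RNA subtracted, -1.56 with a stricter UMI minimum, -0.68 under 15% mitochondrial UMIs, -0.46 without the overlap barcodes and -0.27 per general endothelial UMI. For 24 h Kdr was 0.26 with equal weights, 0.19 thinned, -0.56 with free RNA subtracted and -0.48 with the overlap left out as well. For 48 h these were 1.07 with equal weights, 0.14 with free RNA subtracted, 1.05 without the overlap, 0.21 with both and 0.43 per general endothelial UMI. For 96 h subtraction gave -0.21, and -0.41 without the overlap. A value is called reversed only where its counting interval excludes 0. Values whose interval includes 0 also changed sign, among them Vegfa at 96 h and, in endothelial barcodes, Kdr, Flt4, Nrp2 and Tie1 at 24 h, Nrp1 at 48 h, and Kdr, Flt1, Flt4, Nrp2, Tek and Tie1 at 96 h. Beside Vegfa and Kdr, the low P14 receptor values and Tie1 at 48 h reversed. With equal weights Flt1 was 0.97, Flt4 1.20, Nrp1 0.19, Nrp2 1.26, Tek 0.50 and Tie1 0.65. Thinned in 1 random draw, they were 1.02, 1.27, 0.0965, 0.78, 0.27 and 0.90. Without the overlap Flt1 was 0.16, Flt4 0.0162 and Nrp2 0.0742. Per general endothelial UMI Flt1 was 0.44, Flt4 0.17, Nrp2 0.27, Tek 0.0598 and Tie1 0.36. Tie1 at 48 h was -0.0815 with free RNA subtracted and -0.0426 without the overlap as well. The cause was not tested. Of the Vegfa and Kdr values, 62 alternatives stayed within the counting interval, 23 moved and 3 reversed; of all others 337, 65 and 22. With no UMI minimum the genes past 2-fold in endothelial barcodes were 44.7%, 40.4%, 40.2% and 37.8% for P14, 24 h, 48 h and 96 h, against 25.7%, 21.5%, 23.5% and 15.8%. The combined setting (overlap left out and free RNA subtracted) and that per general endothelial UMI were chosen after seeing the data. Endothelial values rest on 51 to 159 barcodes per library, which limits Vegfc, Angpt1 and Angpt2 to counts of UMIs.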
